A study of Mus musculus with 15 samples.

Results

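The right hippocampus of C57BL/6 males was compared between severe stress with saline and no treatment, in mouse pups of postnatal day 9. The comparison rests on 6 arrays, 3 labelled severe stress with the saline vehicle (SSS) and 3 labelled untreated (CC), of 15 in the series. The other 9 arrays came from mild stress with saline (MSS), severe stress with the opioid morphine (SSM) and mild stress with morphine (MSM), 3 each. Pups were treated from postnatal day 5 to day 9, with birth counted as day 1, and litters were limited to 7 pups per dam. SSS pups differed from CC pups in both the stress and the saline, since CC received neither, so these cannot be told apart here. The sources used here do not give what the severe stress consisted of or which pups shared a litter. Each animal's total RNA was hybridised to an Affymetrix Mouse Gene 1.0 ST array, a single-colour array whose probes lie along the exons of each gene. Each of the 19938 genes compared is represented by the probe set that names only that gene and is brightest over the 15 arrays. All levels are log2 intensities, all differences are SSS minus CC on the log2 scale unless said otherwise, and SE is the standard error of a difference from limma. A p-value here measures nothing beyond the spread among these arrays.

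In the first postnatal days the rodent hippocampus is still forming synapses, and granule cells of the dentate gyrus are still being born. Stress acts on this tissue through the hypothalamic-pituitary-adrenal axis, in which corticotropin-releasing hormone leads to the release of corticosterone. The hormone binds a pair of receptors, the mineralocorticoid receptor Nr3c2 and the glucocorticoid receptor Nr3c1, which both act on transcription. In young rodents the adrenal response to many stressors is blunted.

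The 6 arrays carried the markers of the labelled tissue. Camk2a, a kinase subunit of excitatory forebrain neurons, was 11.33, 11.45 and 11.44 in SSS, against 11.16, 11.38 and 11.20 in CC. Prox1, a transcription factor of dentate granule cells, was 8.73, 9.10 and 8.80 in SSS, against 8.62, 8.94 and 8.55 in CC. Pairwise correlations across genes among the 6 arrays ranged from 0.99629 to 0.99843, and the highest joined SSS replicate 3 with CC replicate 2. Array medians over all probe sets were 5.42 to 5.48 in SSS and 5.44 to 5.48 in CC. 2 of these arrays stood apart in genes of tissue bordering the hippocampus. SSS replicate 2 had the lowest level of the 6 arrays in 14 of the 14 choroid plexus genes measured, and CC replicate 1 had the highest level in 13 of the 13 striatum genes measured. In whole tissue, fewer cells of a type and less RNA per cell cannot be told apart. The titles carry a number marked SS, of unstated meaning, that is 10 for SSS replicates 1 and 2, 8 for SSS replicate 3 and 12 for all CC arrays. No such number is shared by SSS and CC, so it and the treatment cannot be told apart.

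No gene passed the threshold in the comparison of SSS with CC. Of 19938 genes, 0 had an adjusted p under 0.05 in limma (0% called), and the smallest adjusted p was 0.99992. At an unadjusted p under 0.05 there were 404 genes (2.03%), of which 186 were higher in SSS (0.933%) and 218 lower (1.09%). A uniform spread of p-values would put 997 genes there. The split depended on scaling, with 481 of 733 genes higher after quantile normalization and 455 of 617 higher after median centring of the arrays. The 3 SSS arrays all lay above the 3 CC arrays in 1055 genes (5.29%) and all below them in 812 (4.07%). The difference was above 0 in 10498 genes (52.7%), with a median of 0.00422 over all genes. No gene is therefore said to have risen or fallen in SSS, and the values that follow are sizes and orders of the measured levels.

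The differences were small for most genes. The median absolute difference was 0.0477 and the 95th percentile was 0.166. Only 23 genes differed by more than 0.5, and 21 of these were lower in SSS. The number of arrays limited the precision, with a median SE of 0.0805. For each gene, the 95% confidence interval of the difference bounds the change that these arrays allow. It lay wholly within a 1.5-fold change in either direction for 19485 genes (97.7%) and within 2-fold for 19857 (99.6%). Among the 9969 genes above the median level, these shares were 96.7% and 99.4%. The plot of the difference against the gene level shows how few genes lay beyond 1.5-fold and which lists they belong to.

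**Figure D1:**
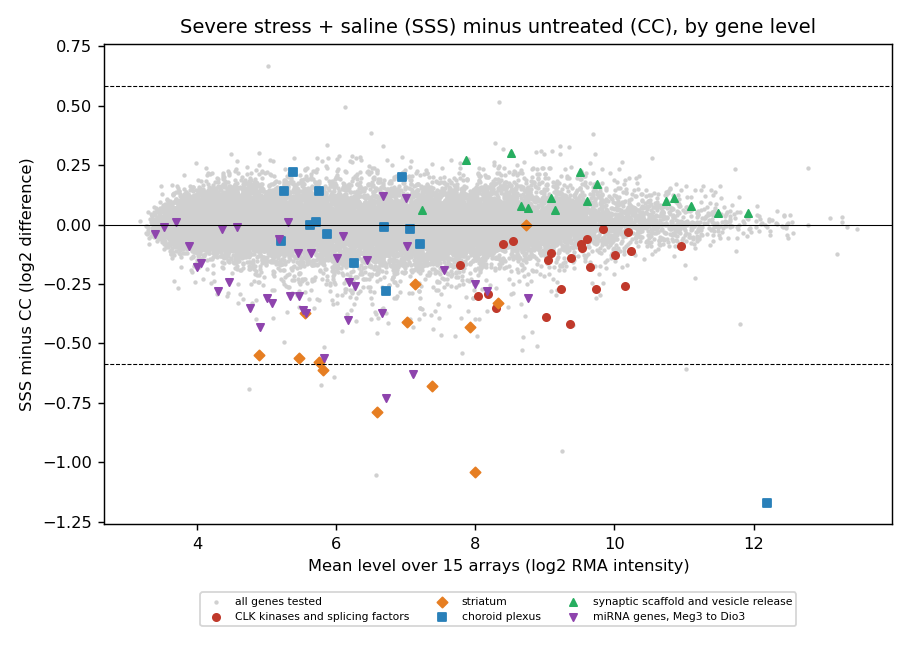
Each point is a gene, with its mean level over the 15 arrays (log2 RMA intensity) on the x axis and the SSS minus CC difference (log2) on the y axis. Colours mark the members of 5 gene groups and dashed lines a 1.5-fold difference. Most of the cloud lies between the lines, the splicing genes and the miRNA genes lie mostly below 0, the synaptic genes lie above 0, and the points beyond the lower line include striatum genes and the choroid plexus gene Ttr.

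Among genes above the median level whose SSS and CC arrays did not overlap, the 12 with the smallest p-values on the higher side differed by 0.18 to 0.28. Because they were picked for their small p-values, the differences are given as values only. Zfp703, which codes for a zinc finger transcriptional repressor, was 6.57, 6.65 and 6.36 in SSS, against 6.33, 6.20 and 6.24 in CC, a difference of 0.27 (SE 0.081, unadjusted p = 0.00432 in limma). Slc19a2, a thiamine transporter, was 7.00, 6.95 and 7.06 in SSS, against 6.73, 6.83 and 6.79 in CC, a difference of 0.22. Frrs1l, which codes for a protein that assists the assembly of AMPA-type glutamate receptors, was 10.10, 10.13 and 10.11 in SSS, against 9.94, 9.90 and 9.96 in CC. The Frrs1l difference was 0.18 (SE 0.0571), and each group's arrays lay within 0.06 of one another. The remaining 9 were Tmem256 (0.28), Lage3 (0.25), H1f10 (0.22), Twistnb (0.22), Ctif (0.21), Pcnx (0.20), Sos1 (0.19), Gid8 (0.18) and Zfp777 (0.18). Their products include a subunit of a tRNA-modifying complex (Lage3), a linker histone (H1f10), a subunit of RNA polymerase I (Twistnb), a translation initiation factor of the nuclear cap-binding complex (Ctif), an activator of Ras (Sos1) and a subunit of a ubiquitin ligase (Gid8).

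On the lower side the 12 genes chosen the same way differed by 0.22 to 0.31 in size. Akap8l, which codes for a nuclear protein of the A-kinase anchor family, was 7.66, 7.78 and 7.94 in SSS, against 8.17, 8.0 and 8.04 in CC. Its difference was -0.28 (SE 0.0702, 95% confidence interval -0.43 to -0.13, unadjusted p = 0.00142 in limma). Tmem87a, which codes for a membrane protein of the Golgi apparatus, was 7.46, 7.46 and 7.56 in SSS, against 7.68, 7.75 and 7.70 in CC, a difference of -0.22. Its level was 7.67 ± 0.0197 in MSS and 7.67 ± 0.0736 in SSM (SD, n = 3 each), and it was chosen for low SSS arrays, so that these levels are a description. Arglu1, which codes for an arginine- and glutamate-rich regulator of splicing, was 7.83, 8.06 and 8.10 in SSS, against 8.46, 8.15 and 8.26 in CC, a difference of -0.29. The other 9 were Ccdc39 (-0.31), Elac1 (-0.31), Rpgr (-0.26), Fubp1 (-0.25), Kctd18 (-0.24), Las1l (-0.24), Efcc1 (-0.23), Iqcb1 (-0.23) and Glb1l (-0.22), of which Ccdc39 acts in the assembly of ciliary axonemes, Elac1 acts in the maturation of tRNA ends and Las1l in the processing of ribosomal RNA. On the lower side of the plot of these 24 genes, SSS replicate 1 is lowest in 9 and SSS replicate 2 in 3. In Tmem87a and Kctd18, counted among the 9, SSS replicates 1 and 2 are level at the precision given.

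**Figure D2:**
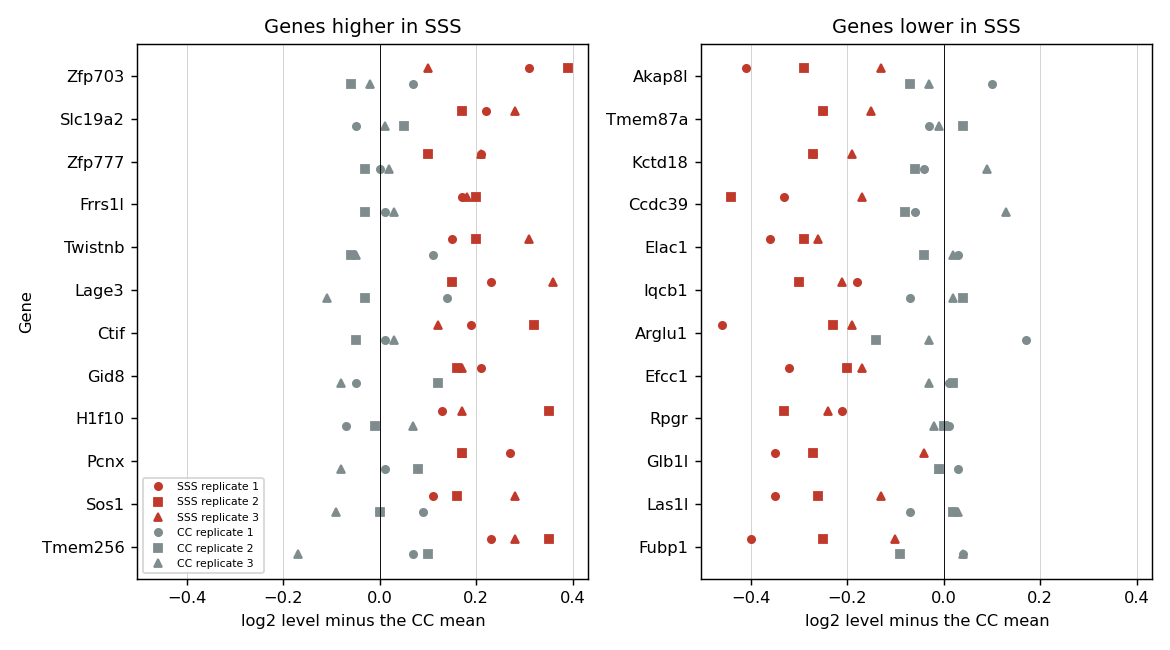
Levels of the 24 named genes on each SSS array (red) and CC array (grey), as log2 level minus the mean of the 3 CC arrays. By the rule that chose them the groups do not overlap in any row. On the left the Frrs1l points of both groups are tight, and on the right SSS replicate 3 is the SSS array nearest to CC in 10 of the 12 genes, all but Iqcb1 and Rpgr.

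Genes of pre-mRNA splicing lay lower in SSS in every measured member of their list. CLK kinases phosphorylate the serine- and arginine-rich (SR) splicing factors and so set how these proteins act on exons, and several genes of both families keep introns in a share of their own transcripts. All 23 measured members of a list of CLK kinases and splicing factors were lower in SSS (23 of 23 below 0, where 47.3% of all genes were). Their median difference was -0.136 against 0.00422 over all genes. This list and the others here were drawn up with earlier results of these data known, so their counts are descriptions. Of the 23 genes, 11 had an unadjusted p under 0.05 on the lower side, against 1.09% of all genes. No overlap between the groups was seen in 6, against 4.07% of all genes on the lower side, and 0 were called. All 23 were also lower after quantile normalization and after median centring. Clk1 was 8.68, 9.00 and 9.38 in SSS, against 9.66, 9.33 and 9.33 in CC. SSS replicates 1 and 2 lay below all CC arrays and SSS replicate 3 among them, a difference of -0.42 (SE 0.143, unadjusted p = 0.0102 in limma). Clk4, of the same kinase family, was 7.51, 7.77 and 8.03 in SSS, against 8.23, 7.94 and 8.05 in CC, a difference of -0.30 (SE 0.116).

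The SR protein gene Srsf5 was 9.77, 9.99 and 10.15 in SSS, against 10.26, 10.18 and 10.25 in CC, a difference of -0.26 with no overlap. Srsf10, which codes for an SR protein that can repress splicing, was 9.40, 9.61 and 9.72 in SSS, against 9.74, 9.74 and 9.80 in CC, a difference of -0.18. Pnisr, which codes for an SR-related nuclear protein, was 8.41, 8.71 and 9.10 in SSS, against 9.33, 8.93 and 9.11 in CC, a difference of -0.39. In these genes SSS replicate 1 was the lowest of the 6 arrays and SSS replicate 3 the SSS array nearest to CC. Tra2a (-0.35), Luc7l3 (-0.27), Rsrp1 (-0.27), Rbm39 (-0.14) and Srsf1 (-0.13), which also code for splicing proteins, were the other members with an unadjusted p under 0.05 beside Arglu1. The smallest differences in the list were those of Srsf4 (-0.02), Tra2b (-0.03) and Srsf2 (-0.06).

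The size of this difference varied between the SSS arrays more than between the CC arrays. The mean level of the 23 genes, relative to the CC mean, was -0.336, -0.159 and -0.034 in SSS replicates 1, 2 and 3, against 0.090, -0.071 and -0.018 in CC replicates 1, 2 and 3. SSS replicate 3 thus lay between CC replicates 2 and 3. SSS replicate 1 was the lowest of the 6 arrays in 20 of the 23 genes, against 2803 of all 19938 genes. SSS replicate 3 lay inside the CC range in 16 of the 23, against 11393 of all genes, and above SSS replicate 1 in all 23. Without SSS replicate 1 the median of the list was -0.0857 and without SSS replicate 3 it was -0.192. SSS replicate 3 is also the SSS array with a different SS number in its title, and the part of that number in this difference was not tested.

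The sequences around the starts of these genes are shown because several members of both families lay lower on the same arrays. The promoter table of RefSeq (GRCm38.p6) had no entry for Arglu1, Clk1 and Pnisr, so the next members by p-value, Srsf5, Srsf10 and Clk4, are given, each from 250 bases before to 50 bases after the start, 300 bases in all, 5′ to 3′. Capitals mark matches on either strand to GGGCGG with its reverse complement, to TGACGTCA and to CCAAT with its reverse complement, which are binding motifs of Sp-type factors, of the cyclic AMP response element binding protein and of NF-Y.
Srsf5 (chr12:80945249-80945548, plus strand): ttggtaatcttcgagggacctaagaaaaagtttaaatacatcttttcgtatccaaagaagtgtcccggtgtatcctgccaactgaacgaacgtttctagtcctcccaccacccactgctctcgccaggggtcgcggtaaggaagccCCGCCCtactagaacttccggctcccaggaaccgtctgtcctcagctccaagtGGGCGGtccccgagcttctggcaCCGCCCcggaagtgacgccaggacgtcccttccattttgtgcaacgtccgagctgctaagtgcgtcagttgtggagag
Srsf10 (chr4:135855821-135856120, plus strand): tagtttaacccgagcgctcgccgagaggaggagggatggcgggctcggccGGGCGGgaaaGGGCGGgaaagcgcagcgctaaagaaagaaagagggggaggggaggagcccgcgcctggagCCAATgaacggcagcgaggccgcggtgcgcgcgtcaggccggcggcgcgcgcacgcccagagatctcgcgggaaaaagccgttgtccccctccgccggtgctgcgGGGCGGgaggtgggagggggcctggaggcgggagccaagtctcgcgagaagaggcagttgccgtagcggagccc
Clk4 (chr11:51262864-51263163, plus strand): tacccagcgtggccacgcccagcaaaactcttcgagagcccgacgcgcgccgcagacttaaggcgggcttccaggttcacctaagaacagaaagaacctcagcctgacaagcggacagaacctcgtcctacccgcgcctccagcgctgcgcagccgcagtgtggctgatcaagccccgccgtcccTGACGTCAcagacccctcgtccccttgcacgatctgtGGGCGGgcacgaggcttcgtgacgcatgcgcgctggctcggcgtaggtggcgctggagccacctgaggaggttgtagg
Srsf5 held 3 copies of GGGCGG, Srsf10 held 3 of GGGCGG and 1 of CCAAT, and Clk4 held 1 of GGGCGG and 1 of TGACGTCA. CACGTG, the motif of clock and Myc-type factors, was also searched and was in none of these windows. Over all 32851 promoters of the table, GGGCGG was in 35.7%, CCAAT in 37.4%, TGACGTCA in 1.79% and CACGTG in 7.15%. A match of letters is a description and does not show that a factor binds there.

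Most long noncoding RNAs of a list named for retention in the nucleus lay lower on the same arrays as the splicing genes. Where each RNA lies in the cell was not measured here. Malat1, an abundant RNA of the nuclear speckles where splicing factors are stored, was 9.83, 10.96 and 11.21 in SSS, against 11.51, 11.07 and 11.24 in CC. SSS replicate 1 lay more than 1 below the other 5 arrays, SSS replicate 3 lay among the CC arrays, and the difference was -0.61 (SE 0.243, unadjusted p = 0.0254 in limma). Meg3, the maternally expressed noncoding RNA of the imprinted Dlk1 to Dio3 region, was 10.92, 11.80 and 11.91 in SSS, against 12.13, 11.71 and 12.05 in CC, a difference of -0.42. Rian, a noncoding RNA of the same region, was 7.33, 7.59 and 8.07 in SSS, against 8.21, 7.93 and 8.25 in CC, a difference of -0.47. Of the 6 measured members of this list 5 were lower, with a list median of -0.402. An unadjusted p under 0.05 on the lower side was found in 3, against 1.09% of all genes. Of the 6, 0 had groups without overlap and 0 were called. The median was -0.117 without SSS replicate 1 and -0.57 without SSS replicate 3, so that most of its size came from SSS replicate 1. Snhg11 (-0.39) and Gas5 (-0.12), host genes of small nucleolar RNAs, were also lower, and Pantr1 was at 0.03.

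The imprinted Dlk1 to Dio3 region on chromosome 12 holds protein-coding genes expressed from the paternal copy and, on the maternal copy, a string of noncoding RNAs that includes one of the largest miRNA clusters of mammals. A miRNA is a short RNA that pairs through its seed, bases 2 to 8, with target messages and lowers their output. The probe sets of the array read the transcripts of the miRNA genes, and the mature miRNAs were not measured. Of 18 measured members of the region's list 16 were lower in SSS, with a median of -0.211. An unadjusted p under 0.05 on the lower side was found in 5, against 1.09% of all genes, and 0 were called. Of the paternally expressed genes, Dlk1, which codes for a membrane protein related to Notch ligands, differed by 0.01, the deiodinase gene Dio3 by -0.02 and the retrotransposon-derived Rtl1 by -0.18.

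All miRNA genes between Meg3 and Dio3 were then described as 1 set, chosen after their values were seen. RefSeq lists 58 hairpins there, and 39 were measured. The measured miRNA genes of the region's list are among these 39, and Meg3 and Rian are also in the list of nuclear RNAs. The counts of these lists are therefore not independent of one another. Whether neighbouring miRNA genes were read from shared transcripts was not tested, so the 39 are not taken as separate observations. Of the 39, 35 were lower in SSS and 4 higher, where 47.3% of all genes were lower. 10 of the 39 had an unadjusted p under 0.05 on the lower side, against 1.09% of all genes, and 0 were called. The groups did not overlap in 3 of the 39, close to the 4.07% of all genes. The median difference was -0.239, and 34 were lower after quantile normalization and 33 after median centring. The mature sequence of 1 arm of each of the 5 with the smallest p-values and of Mir380, which differed most from mild stress, is printed 5′ to 3′ with the seed in capitals, from RefSeq with GRCm38.p6 positions.
miR-382-5p (chr12:109733781-109733802, plus strand): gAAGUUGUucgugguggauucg
miR-541-5p (chr12:109742422-109742446, plus strand): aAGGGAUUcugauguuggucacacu
miR-487b-5p (chr12:109727347-109727367, plus strand): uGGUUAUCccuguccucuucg
miR-376b-3p (chr12:109723508-109723528, plus strand): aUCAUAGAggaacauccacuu
miR-300-3p (chr12:109724363-109724384, plus strand): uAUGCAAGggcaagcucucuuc
miR-380-3p (chr12:109711842-109711863, plus strand): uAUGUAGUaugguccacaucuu
No 2 of the sequences shown share a seed, so these arms do not belong to a single seed family.

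Mir382 was 6.38, 6.63 and 7.44 in SSS, against 7.33, 7.26 and 7.76 in CC. SSS replicates 1 and 2 lay below all CC arrays and SSS replicate 3 among them, a difference of -0.63 (SE 0.201, unadjusted p = 0.00668 in limma). Mir487b was 5.71, 6.34 and 6.94 in SSS, against 7.24, 6.61 and 7.32 in CC, a difference of -0.73 (SE 0.235) with overlap. Mir541 was 4.33, 4.76 and 4.87 in SSS, against 4.98, 4.87 and 5.39 in CC, a difference of -0.43 (SE 0.135) with the groups just meeting. Mir376b was 4.01, 4.21 and 4.21 in SSS, against 4.38, 4.31 and 4.58 in CC, a difference of -0.28. Both genes are dim, near the lower end of the array's range. Mir300 was 4.87, 5.58 and 5.99 in SSS, against 5.98, 5.80 and 6.33 in CC, a difference of -0.56. Mir543 (-0.31), Mir369 (-0.35), Mir380 (-0.33), Mir665 (-0.24) and Mir381 (-0.37) were the others with an unadjusted p under 0.05, and Mir673 (0.11) and Mir540 (0.12) were the highest.

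**Figure D3:**
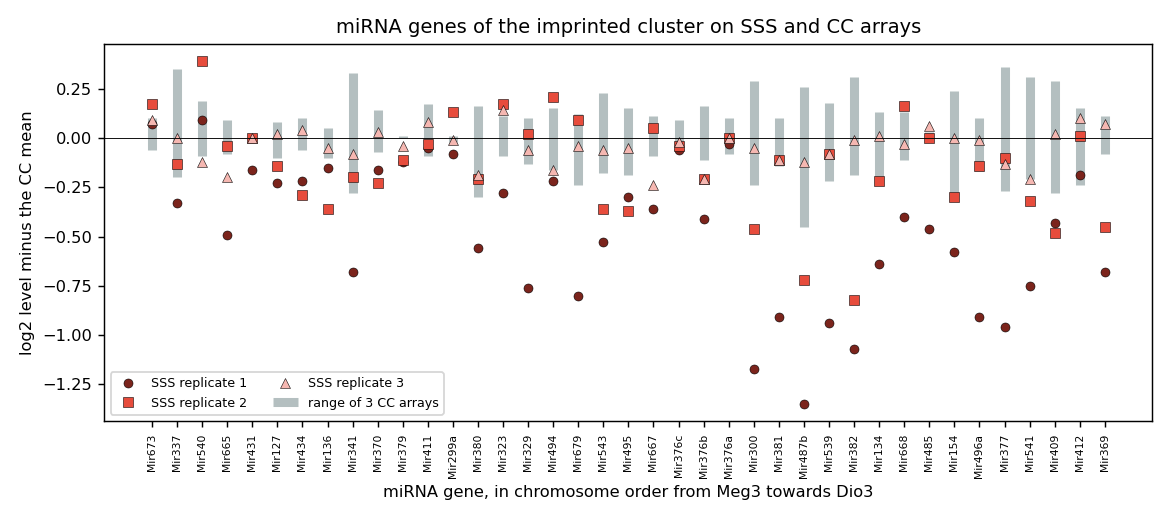
Levels of the 39 measured miRNA genes of the cluster in chromosome order, as log2 level minus the mean of the 3 CC arrays. Points are the 3 SSS arrays and grey bars the range of the 3 CC arrays. SSS replicate 1 is the lowest of the 6 arrays in 29 of the 39 genes, and SSS replicate 3 lies inside the CC range in 30.

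Within SSS the miRNA genes were lowest on replicate 1 and highest on replicate 3, as the splicing genes and nuclear RNAs were. The mean level of the 39 genes relative to the CC mean was -0.468, -0.141 and -0.042 in SSS replicates 1, 2 and 3, against 0.061, -0.146 and 0.085 in CC replicates 1, 2 and 3. SSS replicate 2 lay just above CC replicate 2, so that SSS replicates 2 and 3 were both inside the CC range. Only SSS replicate 1 lay below it. Their median was -0.0983 without SSS replicate 1 and -0.261 without SSS replicate 3. The array values of 6 lists are set side by side in the plot of list means.

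**Figure D4:**
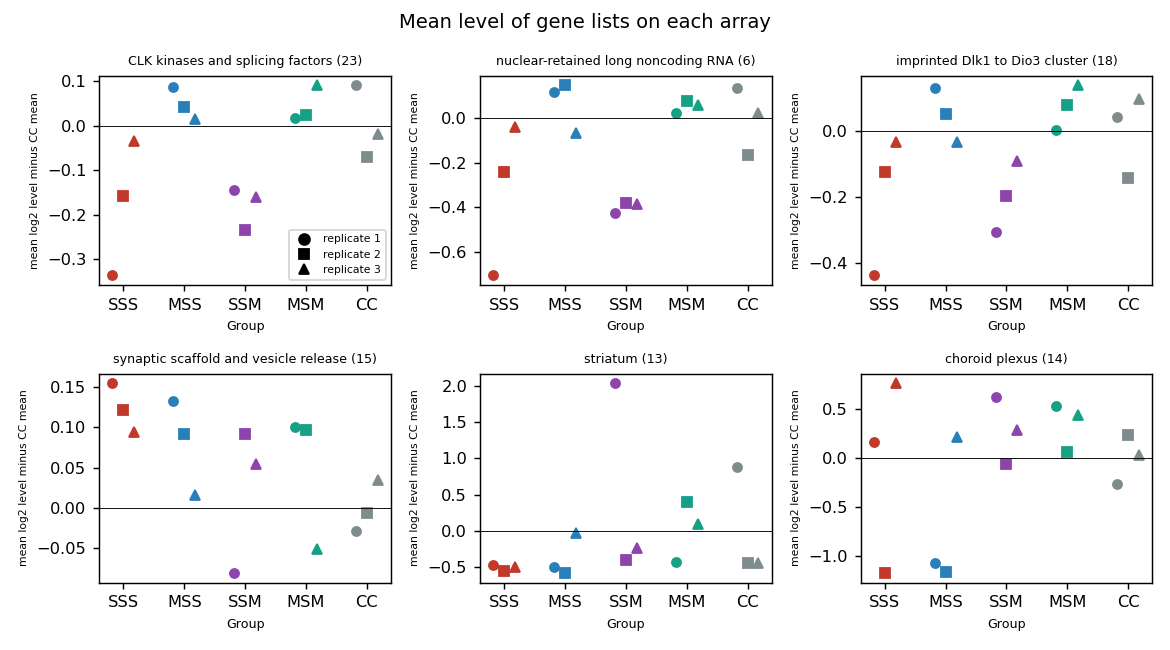
Mean log2 level of the genes of 6 lists on each of the 15 arrays, relative to the mean of the 3 CC arrays, with the number of genes measured in each title. Groups run from SSS on the left to CC on the right, and symbols mark replicates 1, 2 and 3. The splicing, nuclear RNA and imprinted cluster panels have SSS replicate 1 lowest of the 15 arrays. The striatum panel has CC replicate 1 highest of the 6 SSS and CC arrays. The choroid plexus panel has SSS replicate 2 and MSS replicates 1 and 2 far below SSS replicates 1 and 3.

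Genes of the presynaptic release site and the postsynaptic scaffold lay slightly higher in SSS. All 15 measured members were above 0 (15 of 15, where 52.7% of all genes were), with a median of 0.0963. Of them 2 had an unadjusted p under 0.05, against 0.933% of all genes on the higher side. No overlap between the groups was seen in 6, against 5.29% of all genes on that side, and 0 were called. All 15 were also higher under both scalings. Pclo, which codes for piccolo, a scaffold of the presynaptic active zone, was 8.85, 8.60 and 8.51 in SSS, against 8.48, 8.13 and 8.44 in CC. All 3 SSS arrays lay above the CC arrays, with a difference of 0.30 (SE 0.113, unadjusted p = 0.0172 in limma). Bsn, which codes for the related scaffold bassoon, was 8.17, 8.03 and 7.84 in SSS, against 7.92, 7.63 and 7.68 in CC, a difference of 0.27 with overlap.

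Shank1, a scaffold of the postsynaptic density, was 9.69, 9.71 and 9.58 in SSS, against 9.34, 9.47 and 9.51 in CC, a difference of 0.22 (SE 0.104) with no overlap. Stx1a, a membrane fusion protein of the release site, was 9.90, 9.85 and 9.82 in SSS, against 9.54, 9.77 and 9.73 in CC, a difference of 0.17. The vesicle genes Syn1 (0.10), Syp (0.05) and Syt1 (0.05) had smaller differences, as did the fusion gene Snap25 (0.08) and the postsynaptic Dlg4 (0.10). The list mean was 0.155, 0.121 and 0.094 in SSS replicates 1, 2 and 3, against -0.029, -0.006 and 0.035 in CC replicates 1, 2 and 3, so that the groups did not overlap. The median ranged from 0.0819 to 0.112 with any 1 of the 6 arrays left out. In MSS the list mean was 0.133, 0.092 and 0.016, which spans the gap between SSS and CC. The list mean was 0.1, 0.097 and -0.051 in MSM and -0.081, 0.092 and 0.055 in SSM. The list of glutamatergic and subfield neuron genes had a median of 0.12 with 11 of 16 above 0, and it was 0.0428 without CC replicate 1, the array with the high striatum genes. Neurod2, a transcription factor of excitatory neurons, was 8.65, 8.84 and 8.70 in SSS, against 8.39, 8.59 and 8.53 in CC, a difference of 0.22 (SE 0.152).

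No gene induced by glucocorticoids passed the test. Of 19 measured, 12 were higher and 7 lower, with a median of 0.0407. On the higher side 1 had an unadjusted p under 0.05, against 0.933% of all genes. The groups did not overlap in 1 gene on the higher side and 1 on the lower, against 5.29% and 4.07% of all genes. The median was 0.00179 without CC replicate 1. The gene under 0.05 was Plin4, which codes for a lipid droplet protein, at 5.69, 5.63 and 5.55 in SSS, against 5.58, 5.42 and 5.26 in CC, a difference of 0.20 (SE 0.0845) in a dim gene. Fkbp5, a co-chaperone that reports receptor activity in many tissues, was 7.83, 7.69 and 7.85 in SSS, against 7.79, 7.71 and 7.67 in CC. Its difference was 0.06 with a 95% confidence interval from -0.08 to 0.21, so that an increase beyond 0.21 lies outside the interval. Sgk1, a kinase induced by both corticosteroid receptors, was 8.07, 7.86 and 8.07 in SSS, against 8.07, 8.05 and 7.90 in CC, a difference of -0.01 (95% confidence interval -0.18 to 0.16). Per1, a clock gene with a glucocorticoid response element, was 7.09, 7.09 and 7.07 in SSS, against 7.02, 6.94 and 6.94 in CC, a difference of 0.11 with no overlap. Tsc22d3, which codes for the glucocorticoid-induced leucine zipper, differed by -0.08.

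The receptors and peptides of the stress axis had levels close to CC. Nr3c1 was 7.74, 7.73 and 7.87 in SSS, against 7.84, 7.84 and 7.80 in CC, a difference of -0.04 (95% confidence interval -0.17 to 0.08). Nr3c2 was 8.93, 9.15 and 9.02 in SSS, against 8.78, 8.98 and 8.80 in CC, a difference of 0.18. Its 95% confidence interval, with a spread taken over all 15 arrays, was wide, from -0.55 to 0.91. Crh, the corticotropin-releasing hormone gene, was 4.61, 4.43 and 4.44 in SSS, against 4.46, 4.70 and 4.63 in CC, and its receptor gene Crhr1 was 7.74, 7.36 and 7.39 in SSS, against 7.41, 7.22 and 7.59 in CC. Both genes overlapped between the groups, and the Crh probe set was dim. Of the 16 genes in the list 12 were higher, 0 had an unadjusted p under 0.05 and the median was 0.0367. Ncoa1, a receptor coactivator, had the only groups without overlap of these 16 genes (0.09), against 5.29% of all genes on the higher side. Named for their roles rather than by p-value were Fkbp5, Sgk1, Tsc22d3, Nr3c1, Nr3c2, Crhr1, Bdnf, Cnp, Gad2, Slc32a1 and the genes named by their difference alone in the splicing, imprinted region and synaptic lists.

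Immediate early genes, which neurons switch on with activity, were higher in 17 of 20 with a median of 0.0506 and 0 at an unadjusted p under 0.05. Egr3 was 7.40, 7.50 and 7.31 in SSS, against 7.29, 7.26 and 7.02 in CC, a difference of 0.21 (SE 0.131), while Npas4 was 5.46, 5.60 and 5.28 in SSS, against 5.59, 5.59 and 5.89 in CC, a difference of -0.24 (SE 0.123). These activity-dependent transcription factors had opposite signs, and neither passed the test. Bdnf, a neurotrophin, was 6.38, 6.38 and 6.38 in SSS, against 6.15, 6.38 and 6.40 in CC, a difference of 0.07. The median without CC replicate 1 was 0.00173 for the immediate early genes.

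Circadian clock genes had a median of 0.000314. Arntl, which codes for the activator BMAL1, was 7.35, 7.51 and 7.49 in SSS, against 7.58, 7.59 and 7.57 in CC, a difference of -0.13 (SE 0.0561, unadjusted p = 0.0354 in limma) with no overlap. Nr1d1, which codes for a repressor of Arntl, was 8.44, 8.37 and 8.32 in SSS, against 8.19, 8.23 and 8.23 in CC, a difference of 0.16 with no overlap. Of the 18 clock genes 9 were higher and 9 lower. The sources used here do not give the hour of sampling. Among chromatin modifiers Arid1b, a subunit of a nucleosome remodelling complex, was 8.93, 8.99 and 8.89 in SSS, against 8.82, 8.82 and 8.66 in CC, a difference of 0.17. That list had 18 of 25 members higher and a median of 0.0606, which was -0.0101 without CC replicate 3 and 0.11 without CC replicate 1.

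Of inflammation genes 11 of 16 were higher, with a median of 0.0271. Icam1, an adhesion molecule of activated endothelium, was 6.30, 6.25 and 6.34 in SSS, against 6.15, 6.17 and 5.90 in CC, a difference of 0.22 (SE 0.0958) with no overlap. Tnf (0.11) and Ptgs2 (0.15) had small differences at low levels. The lists of microglia (-0.0472), astrocyte (-0.0219), endothelial cell and pericyte (0.00304), hypoxia (-0.000522), heat shock (-0.0261), unfolded protein response (-0.0319), apoptosis (0.0148) and interferon response (-0.017) had medians within 0.05 of 0 and 0 genes at an unadjusted p under 0.05. Opioid peptides and receptors had 7 of 8 members lower (6 under either other scaling) and a median of -0.0628. The median was 0.0173 without CC replicate 1, which was the highest array in 5 of the 8, and -0.133 without CC replicate 2. Oprm1, the receptor that morphine binds, was 4.78, 4.85 and 4.77 in SSS, against 5.04, 4.79 and 4.89 in CC, a dim gene with overlap, and Pomc was 0.17 higher and dim (SE 0.0807, unadjusted p = 0.0498 in limma). Among the remaining lists, interneuron genes had 6 of 15 members higher (median -0.0461), oligodendrocyte precursor genes 2 of 13 (-0.0572), thalamus genes 3 of 13 (-0.0248), progenitor and immature neuron genes 10 of 16 (0.0167) and cell cycle genes 4 of 20 (-0.0312). Ependyma and cilia genes had 5 of 14 higher (-0.0693), with Ccdc39 alone at an unadjusted p under 0.05, against 1.09% of all genes on the lower side. Glutamate and GABA-A receptor genes had 8 of 18 higher (-0.0212) and neurotrophins and their receptors 6 of 11 (0.0411). Metabolic and housekeeping lists had medians of -0.0559 for cholesterol synthesis, -0.00425 for fatty acid oxidation, -0.0167 for oxidative phosphorylation, 0.0138 for cytosolic ribosomal proteins and -0.0236 for the proteasome. The plot of list medians gives all 38 lists, whose medians ranged from -0.55 to 0.145, and shows which of them cross 0 when 1 array is left out.

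**Figure D5:**
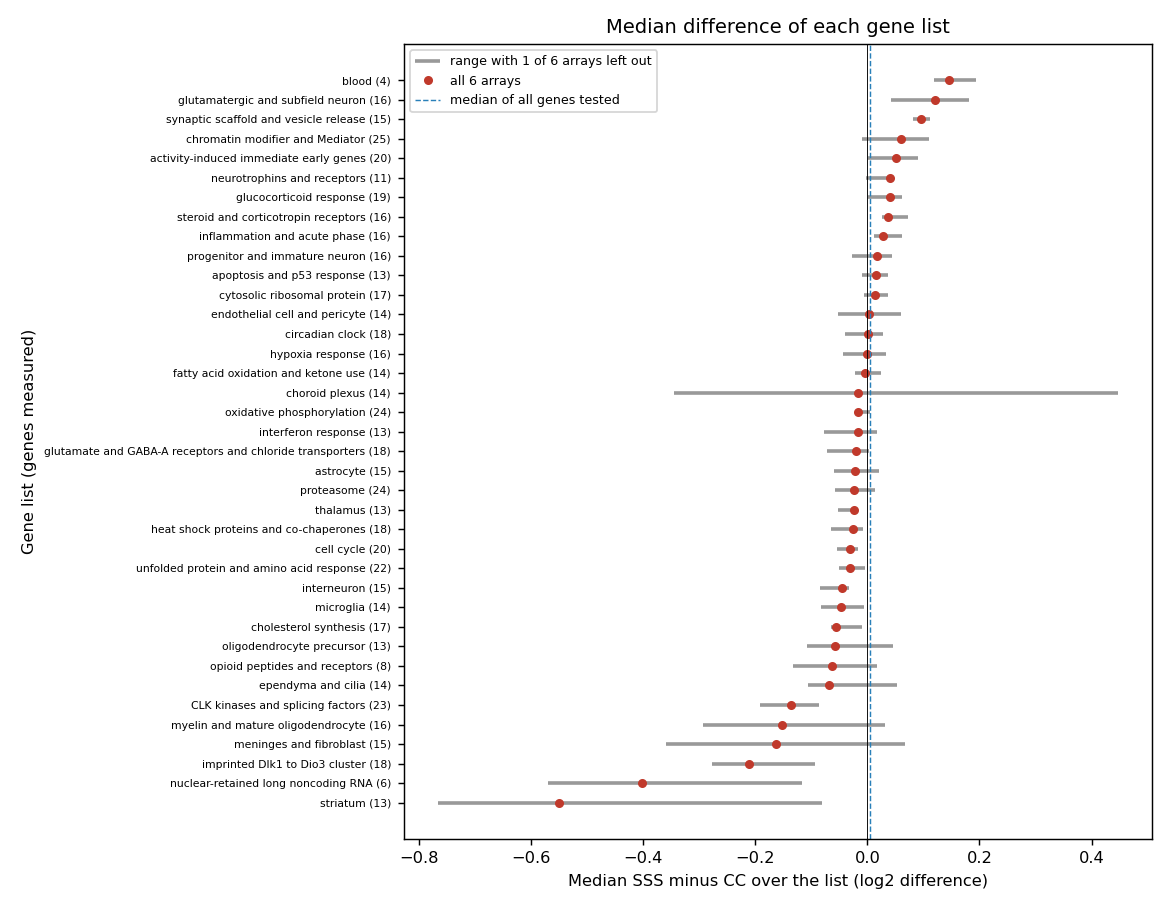
Median SSS minus CC difference (log2) over the measured genes of each of 38 lists, ordered by size, with the number of genes in brackets. Red points use all 6 arrays, grey bars give the lowest and highest median with 1 of the 6 arrays left out, and the dashed line is the median of all genes. The striatum list is lowest at -0.55 and the blood list highest at 0.145, and the choroid plexus bar is the widest.

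Markers of neighbouring tissue were among the largest differences. All 13 measured striatum genes were lower in SSS, 12 of them under either other scaling, with a median of -0.55, and CC replicate 1 was highest in each. Penk, the enkephalin precursor, was 7.02, 7.17 and 7.42 in SSS, against 10.08, 7.31 and 7.35 in CC. The list mean was -0.469, -0.558 and -0.501 in SSS, against 0.882, -0.437 and -0.445 in CC. Without CC replicate 1 the median was -0.0809. The inhibitory neuron genes Gad1, Gad2 and Slc32a1, which striatal neurons also express, were highest in that array too, at 10.12, 9.99 and 9.49. Sst, the peptide of a class of hippocampal interneurons, was 10.99, 10.83 and 10.92 in SSS, against 11.14, 11.03 and 11.08 in CC, a difference of -0.17 (SE 0.0999).

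Myelin genes followed the same array in CC. Of the 16 measured 14 were lower in SSS and CC replicate 1 was highest in 11. Their median was -0.153, and without CC replicate 1 it was 0.0315. Cnp, an enzyme of myelin sheaths, was 8.71, 8.76 and 8.80 in SSS, against 9.72, 8.82 and 8.62 in CC.

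Choroid plexus genes had a median of -0.0166 that depended on SSS replicates 2 and 3. Ttr, the thyroid hormone carrier secreted by the choroid plexus, was 12.91, 8.87 and 13.22 in SSS, against 12.65, 13.03 and 12.82 in CC, and its difference of -1.17 was the largest of all genes. The list median was 0.448 without SSS replicate 2 and -0.346 without SSS replicate 3. The mean of the list was 0.167, -1.176 and 0.768 in SSS, against -0.266, 0.238 and 0.028 in CC, so that SSS arrays lay on both sides of CC. In MSS it was -1.067, -1.16 and 0.215, so low choroid plexus levels were not particular to SSS replicate 2. SSS replicate 2 was also lowest in 13 of 15 genes of the meninges and fibroblasts, whose median was -0.163 and, without it, 0.0676. Ptgds, a prostaglandin synthase abundant in meninges and choroid plexus, was 9.30, 7.67 and 9.53 in SSS, against 9.63, 10.07 and 9.65 in CC. The part of tissue composition in other differences was not tested. With SSS replicate 2 and CC replicate 1 both left out, 0 genes were called and 279 had an unadjusted p under 0.05.

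Most of the few measured markers of red blood cells lay higher in SSS. Alas2, the first enzyme of heme synthesis in red cells, was 6.43, 6.14 and 6.50 in SSS, against 5.96, 5.87 and 5.75 in CC, a difference of 0.50 (SE 0.211) with no overlap. Slc4a1, the anion exchanger of the red cell membrane, was 5.35, 5.40 and 5.44 in SSS, against 5.17, 5.32 and 5.04 in CC, a difference of 0.22 (SE 0.0711) with no overlap. Of the 11 genes listed 4 were measured, of which 3 were higher and 1 lower, with a median of 0.145. On the higher side 2 had an unadjusted p under 0.05 and 2 had no overlap, against 0.933% and 5.29% of all genes. Of the 4 genes 0 were called. The list mean was 0.18, 0.125 and 0.244 in SSS, against -0.005, 0.052 and -0.047 in CC. In MSS it was 0.241, -0.047 and -0.072, so that MSS replicate 1 lay among the SSS arrays. The globin genes were not analysed here. Alas2 differed by 0.53 between SSS and MSS as well and by 0.53 between SSM and CC.

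A few genes outside the lists differed by more than 0.5 and were chosen after their values were seen. G530011O06Rik, a RIKEN clone, was 5.76, 6.13 and 5.08 in SSS, against 6.20, 7.10 and 6.83 in CC, a difference of -1.06 (SE 0.421) with no overlap. Galntl6, of a family of glycosyltransferases that start mucin-type chains, was 8.48, 8.40 and 8.39 in SSS, against 7.68, 7.60 and 8.44 in CC, a difference of 0.52 (SE 0.153). CC replicate 3 lay with the SSS arrays, and the means of MSS, SSM and MSM were 8.45, 8.52 and 8.40. CC replicates 1 and 2 were thus the low arrays of the whole series. Without CC replicate 3 Galntl6 was called (adjusted p = 0.00162 in limma). These values come from the brightest of 3 probe sets of the gene, and the values of the others are not given here. Gh, the growth hormone gene, was 5.59, 6.37 and 4.81 in SSS, against 4.87, 4.92 and 4.97 in CC, high on 2 of the 3 SSS arrays. Leng8, which codes for a nuclear protein related to messenger RNA export factors, was 7.96, 8.79 and 9.05 in SSS, against 9.29, 8.84 and 9.20 in CC, a difference of -0.51 with SSS replicate 1 lowest.

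Mild stress with saline sets the 2 labelled severities side by side, since both groups had saline. All MSS arrays carry the SS number 11, which no SSS array has, so this number and severity cannot be told apart either. Comparisons of different groups with CC share the CC arrays, so the test of their difference is SSS minus MSS. In limma 0 of 19938 genes were called (0%), the smallest adjusted p was 0.527 and 568 genes were under 0.05 unadjusted (2.85%), with 255 higher (1.28%) and 313 lower (1.57%) in SSS. That split turned with scaling, with 596 higher and 345 lower after quantile normalization and 1018 higher and 161 lower after median centring. Without SSS replicate 1 the count was 353. The SSS arrays of this comparison are those compared with CC, so the splicing and miRNA values below are not independent of the ones above. Of the 23 splicing genes 11 were among those lower (11 of 23 against 1.57% of all genes), and the median over the list was -0.165 in SSS minus MSS. Clk1 was 0.61 lower in SSS than in MSS (SE 0.143, unadjusted p = 0.000746 in limma), Clk4 0.47 lower and Tra2a 0.54 lower. Mir380, picked for this difference, had a value of -0.85 in SSS minus MSS. Its value was -0.33 in SSS minus CC and 0.52 in MSS minus CC, so MSS lay above CC in this gene. Of the 39 miRNA genes of the cluster 18 had an unadjusted p under 0.05 on the lower side, against 1.57% of all genes. The median of the splicing list was -0.136 in SSS, 0.0529 in MSS, -0.131 in SSM and 0.058 in MSM, each minus CC, and that of the cluster miRNA genes -0.239, 0.0516, -0.182 and 0.0351 in the same groups. Relative to the CC mean the splicing genes averaged -0.145, -0.235 and -0.161 on the SSM arrays and 0.086, 0.042 and 0.014 on the MSS arrays, so that all 3 SSM arrays lay below SSS replicate 3 and every MSS array above it.

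Morphine under severe stress was compared through SSM minus SSS. In limma 0 of 19938 genes were called (0%), the smallest adjusted p was 0.494 and 1868 genes were under 0.05 unadjusted (9.37%), of which 1736 were higher in SSM (8.71%) and 132 lower (0.662%). After quantile normalization 810 were higher and 642 lower, and after median centring 1010 were higher and 327 lower. SSM replicate 3 had the highest array median of the series, 5.60, and without it the higher and lower counts were 861 and 570. The count was 903 without SSS replicate 2, 2116 without SSM replicate 1 and 3204 without SSM replicate 2. SSM replicate 1 had the highest striatum list mean of the series, 2.039 relative to the CC mean, against 0.882 in CC replicate 1. SSM replicates 2 and 3 were at -0.396 and -0.239. The myelin list mean was also highest in SSM replicate 1, at 0.906, against -0.1 and -0.022 in SSM replicates 2 and 3. The part of tissue composition in SSM minus SSS was not tested. SSM replicate 1 and SSS replicate 3 share an SS number, and no other SSM and SSS arrays do. Of the splicing genes 1 was lower and 0 were higher in SSM at an unadjusted p under 0.05, with a median of 0.00808.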

How the data were processed

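Total RNA of 15 right hippocampi, 3 in each of 5 groups, was read on single-colour arrays. The authors deposited a table of 35557 probe sets on the log2 intensity scale. Per the submitters' processing notes they come from RMA, a method of background correction, quantile normalization and probe summary. Its software and the genome build (neither given in the sources used here) could not be named. No dim gene was filtered from the deposited values.

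The platform annotation names 1 gene for 21789 probe sets and several for 1621, and 12147 are unnamed here. Keeping the brightest probe set of each gene over all 15 arrays left 19938 genes. Groups came from the treatment given for each sample, and replicates are numbered in accession order. The linear model of limma 3.58.1 (R 4.3.3) had 1 mean for each of the 5 groups, so that all 15 arrays shared the estimate of spread, moderated by eBayes with 10 residual and 4.61 prior degrees of freedom. For two-sided tests, p-values were adjusted over all genes (Benjamini-Hochberg), and the threshold was 0.05. The fit was tested on simulated data.

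As fewer than 10 genes passed, the 12 genes with the smallest p on each side were named, among genes above the median level (6.25) whose groups do not overlap. Predicted genes, RIKEN clones, sensory receptors and small RNAs were passed over (0 on the higher side, 1 on the lower). Of each of 38 gene lists (673 members, 603 measured) up to 4 genes with the smallest p could be named. The members and lists were chosen with earlier results of these data known, and the lists are described by counts and medians with no test. Alternatives were other scalings, other probe set choices, other sets of arrays, dim genes left out, the titles' SS number as a random block and another variance model.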

Additional observations from a re-analysis of the deposited data

How the results depend on the processing

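In SSS against CC 0 genes were called under every alternative except without CC replicate 3, where 1 was (Galntl6, difference 0.782). The count at an unadjusted p under 0.05, 404 of 19938, was 733 after quantile normalization (481 higher), 617 after median centring (455 higher), 725 without SSM replicate 1 and MSM replicate 3, 886 with only the 6 arrays, 233 among the 9969 genes above the median level, 956 over all 35557 probe sets and, chosen after seeing the data, 654 without SSM replicate 3 in the shared spread. With 1 array left out it ranged from 249 (without SSS replicate 1) to 690 (without SSS replicate 3). With the SS number as a random block it was 286. In SSS against MSS 1 gene (Mir99a, adjusted p = 0.0147 in limma) was called without SSM replicate 1 and MSM replicate 3, and 0 otherwise. SSM against SSS had 0 under every alternative run. Relative to the CC mean, SSM replicate 1 had the highest striatum list mean of the series (2.039). MSM replicate 3 had the highest thalamus list mean (1.241). No paired analysis was possible because the replicate numbers follow accession order and the titles of SSS and CC share only 1 H number, whose meaning is not given.

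List medians with 1 array left out ranged from 0.0261 to 0.0727 (steroid and corticotropin receptors), -0.00244 to 0.0475 (neurotrophins), 0.0428 to 0.181 (glutamatergic neuron), -0.072 to 0.00251 (glutamate and GABA-A receptors), -0.0658 to -0.00989 (cholesterol synthesis), -0.0659 to -0.00877 (heat shock), 0.0109 to 0.0625 (inflammation), -0.0781 to 0.0177 (interferon), -0.0404 to 0.0282 (clock), -0.106 to 0.0536 (ependyma) and 0.119 to 0.194 (blood). With SSS replicate 2 and CC replicate 1 both left out, chosen after seeing the data, the medians were -0.0111 (immediate early genes), 0.0138 (neurotrophins), 0.0684 (myelin), 0.0341 (glutamatergic neuron), -0.0983 (interferon), 0.0102 (oxidative phosphorylation) and 0.114 (blood). Inflammation was 0.0441 after median centring and interferon 0.0343 above the median level. Leaving out both SSS replicate 2 and CC replicate 1 turned the sign for Hk2 (-0.0387), Igf2 (0.0138), Gpr17 (0.14), Ttr (0.138), Zic1 (0.00741), Lhx9 (-0.0446) and Sgk1 (0.0942). Median centring turned it for Sgk1 (0.0081). With 1 array left out the sign turned for Pnoc (range -0.129 to 0.00225), Igf2 (-0.341 to 0.0777), Igf1r (-0.00364 to 0.115), Gjb1 (-0.0122 to 0.108), Sox10 (-0.278 to 0.0254), Gpr17 (-0.341 to 0.109), Sox4 (-0.129 to 0.00267), Cpt1a (-0.0203 to 0.192), Ahsa1 (-0.115 to 0.0109), Bcl2l11 (-0.00177 to 0.215), Ttr (-1.95 to 0.23), Slc4a5 (-0.108 to 0.449), Trpv4 (-0.0858 to 0.325), Fmod (-0.48 to 0.01), Tmem267 (-0.158 to 0.0508) and Sgk1 (-0.0627 to 0.0622). The cause of these changes was not tested. No values of signal over background were used, so dim genes carry no detection call.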
